A study of Mus musculus with 6 samples.

Results

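Apob and 6 other genes that build, export or take up lipoproteins are described here in CMT93 spheroids grown with or without palmitate. The 7 genes, of 23399 in the count table, were found by symbol: the structural genes Apob, Apoe and Apoh, the assembly genes Mttp and Sar1b, and the receptor genes Vldlr and Lsr. They were chosen by name with the palmitate and vehicle values already known, so their own differences are given as descriptions and without a test. CMT93 is an established mouse colorectal carcinoma line, labelled as wild type. Cells spent 1 week in monolayer and 5 days as spheroids, on soft agar with 0.25% Matrigel, either with 200 µM palmitate bound to bovine serum albumin (palmitate, 3 libraries) or with the same ethanol and albumin carrier alone (vehicle, 3 libraries). Both groups were therefore exposed to albumin and ethanol. The labels do not say whether replicates were separate cultures, so the spread between libraries may be technical, and so may the p-values that rest on it.

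Lipoproteins carry triglyceride and cholesterol in a shell of phospholipid and apolipoproteins. Enterocytes and hepatocytes build the largest ones around a single molecule of apolipoprotein B: microsomal triglyceride transfer protein, the product of Mttp, loads it with lipid in the endoplasmic reticulum, and COPII vesicles, whose coat starts to form when the GTPase SAR1B binds the membrane, carry the particle to the Golgi. Endocytic receptors such as VLDLR and the lipolysis-stimulated receptor LSR take particles or their remnants up again, with apolipoprotein E as a common ligand.

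The start regions of Apob and Mttp, both lower with palmitate, and of Lsr, which was higher, are shown so that what lies before them can be compared. They are RefSeq sequences of build GRCm38.p6, read 5′ to 3′ on the gene's strand and ending before the earliest RefSeq start. The counts rest on the later build GRCm39, so no other positions are given. Capitals mark matches, on either strand, to 7 motifs: the TATA box TATAAA, the forkhead motif TGTTTGC, the GC box GGGCGG, the AP-1 motif TGANTCA, the nuclear receptor core AGGTCA, the sterol element TCACNCCAC and the ATF4 element TGATGNAAT.
Apob, chr12:7977427-7977628, plus strand: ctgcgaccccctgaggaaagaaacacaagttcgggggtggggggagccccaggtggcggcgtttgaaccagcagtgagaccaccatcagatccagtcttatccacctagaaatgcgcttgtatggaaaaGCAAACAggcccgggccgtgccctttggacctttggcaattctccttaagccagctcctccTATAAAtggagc
Mttp, chr3:138143419-138143668, minus strand: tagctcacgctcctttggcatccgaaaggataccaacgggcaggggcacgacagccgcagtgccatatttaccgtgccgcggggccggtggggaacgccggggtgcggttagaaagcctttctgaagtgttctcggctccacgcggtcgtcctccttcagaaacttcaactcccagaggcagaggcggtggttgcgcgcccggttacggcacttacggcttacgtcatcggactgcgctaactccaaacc
Lsr, chr7:30973470-30973719, minus strand: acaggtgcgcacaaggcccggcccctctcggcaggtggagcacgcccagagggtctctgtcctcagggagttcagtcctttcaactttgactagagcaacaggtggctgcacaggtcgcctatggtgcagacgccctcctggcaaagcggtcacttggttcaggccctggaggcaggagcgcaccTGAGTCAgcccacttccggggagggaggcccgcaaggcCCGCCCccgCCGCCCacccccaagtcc

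In the Apob sequence the capitals are a forkhead motif, on the reverse strand, and a TATA box. They lie 121 and 60 bases before the start on which its window is set. That start is later than the earliest RefSeq start, before which the printed sequence ends, so both lie nearer to the printed end. Of 32851 start windows of the same length (250 bases before to 50 after a start), 5.07% held that forkhead motif and 13.6% that TATA box. The Lsr sequence held an AP-1 motif and a pair of GC boxes. At least 1 AP-1 motif stood in 7.81% of windows and at least 1 GC box in 35.7%. No motif was matched in the printed Mttp sequence, and a GC box lay just past its start. Of these bases, 55.9% were G or C for Apob, 61.2% for Mttp and 66.8% for Lsr, against a median of 52.4% over the first 250 bases of all windows. All 7 genes had a window, 10 windows in all. None of the 10 held the sterol or the ATF4 element, which stand in 1.24% and 0.965% of windows. A match is only a match of letters, and Mttp has a further annotated start that these windows do not cover.

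The libraries held 18898896 to 21851987 counts with vehicle and 22516639 to 22852940 with palmitate, so all palmitate libraries were deeper. Values are given in CPM, counts scaled to a common library total after TMM normalisation. As markers of the epithelium, Epcam, Cdh1, Krt8, Krt18, Krt19 and Cldn7 were abundant, and the summed level of the 8 epithelial markers in the table was 7413 to 7488 CPM with vehicle and 6797 to 6895 CPM with palmitate. Of 11 hepatocyte markers, all were under 1 CPM in each library, Alb and Ttr among them, with sums of 1.62 to 2.26 CPM with vehicle and 1.59 to 2.33 CPM with palmitate. Of 11 enterocyte markers, 9 were under 1 CPM in each library, among them Alpi, Sis, Fabp1 and Apoa1. Anpep and Vil1 made up nearly all of the enterocyte sum, which was 243 to 251 CPM with vehicle and 209 to 216 CPM with palmitate. Of 5 fibroblast markers 3 were under 1 CPM in each library, with sums of 4.75 to 5.32 CPM with vehicle and 1.79 to 2.93 CPM with palmitate; of 5 endothelial markers 3 were, with sums of 3.28 to 3.74 and 2.22 to 2.69 CPM. The intestinal factor Cdx2 averaged 1.72 CPM with vehicle. The part of these shifts in the values of the 7 genes was not tested.

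Apob (ENSMUSG00000020609.15), the scaffold of the triglyceride-rich particles, took a large share of the counts and was much lower with palmitate. It had 1267, 1216 and 1264 CPM in vehicle libraries 1 to 3 and 537, 510.5 and 509.8 CPM in palmitate libraries 1 to 3. The lowest vehicle library lay far above the highest palmitate library. The means were 1249 ± 28.5 CPM with vehicle and 519 ± 15.6 CPM with palmitate (SD, n = 3 each), a 2.41-fold difference (log2 fold change -1.27, SE 0.0174). The authors' deposited table gives -1.26. In raw terms, Apob took 0.127%, 0.122% and 0.127% of all counts with vehicle and 0.0533%, 0.0507% and 0.0507% with palmitate. Thinning all libraries to the smallest total left the log2 fold change at -1.27. In bulk RNA, fewer cells that express a gene and less RNA per cell cannot be told apart. The summed enterocyte and epithelial markers were also lower with palmitate. Among their abundant members, Anpep averaged 231 CPM with vehicle and 197 CPM with palmitate, Krt18 1445 and 1079, Krt8 1702 and 1438, Cdh1 2158 and 2091, Epcam 673 and 657, Krt19 1249 and 1364, and Cldn7 198 and 206. Their part in the Apob difference was not tested. The counts do not separate the full-length message from the edited form that encodes the shorter intestinal protein, and the editing genes Apobec1 and A1cf were not analysed here.

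**Figure D1:**
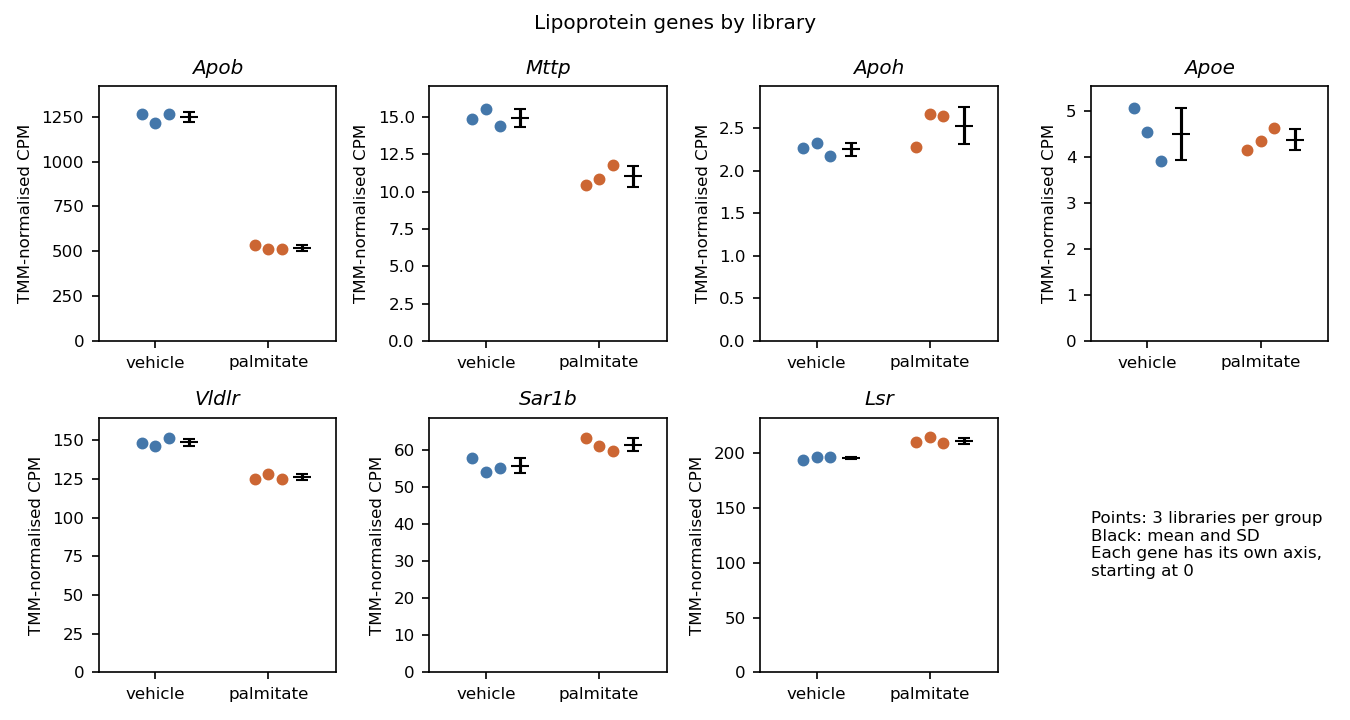
CPM of each of the 7 genes (vertical axes, each from 0) in the 3 vehicle and 3 palmitate libraries (points), with the group mean and SD in black. Apob, Mttp and Vldlr lie lower in all palmitate libraries, Sar1b and Lsr lie higher, and the groups overlap for Apoh and Apoe.

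Mttp (ENSMUSG00000028158.15), which encodes the transfer protein that loads apolipoprotein B with lipid, was also lower. It had 14.9, 15.6 and 14.4 CPM with vehicle and 10.5, 10.8 and 11.8 CPM with palmitate. Every vehicle library was above every palmitate library. The means were 14.9 ± 0.584 and 11.03 ± 0.689 CPM (SD, n = 3 each), which differ 1.35-fold (log2 fold change -0.44, SE 0.0714, approximate 95% interval -0.58 to -0.30). Per kb of exon, so that the genes can be compared, the level of Apob was 37.3 ± 2.22 times that of Mttp with vehicle and 21.0 ± 1.81 times with palmitate (SD, n = 3 each), since the difference was larger for Apob. Of the exon bases of Mttp, 7.36% overlap the opposite-strand gene Trmt10a, whose log2 fold change was 0.02 (SE 0.0584).

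Sar1b (ENSMUSG00000020386.6), the GTPase gene whose loss in people causes chylomicron retention, was slightly higher with palmitate. Its values were 58.0, 54.1 and 55.3 CPM with vehicle and 63.3, 61.2 and 59.8 CPM with palmitate. The groups did not overlap, but the gap between the highest vehicle and the lowest palmitate library was small. The means were 55.8 ± 1.99 and 61.4 ± 1.74 CPM (SD, n = 3 each; log2 fold change 0.14, SE 0.0358). Its close relative Sar1a, which can also start the COPII coat, was at 136 ± 2.09 CPM with vehicle and 132 ± 1.15 CPM with palmitate (SD, n = 3 each; log2 fold change -0.05, for which edgeR gave an adjusted p = 0.102), which was not a call. The summed CPM of both genes was 192 ± 3.75 with vehicle and 193 ± 2.59 with palmitate, and the share of Sar1b in that sum was 29.0 ± 0.569% and 31.7 ± 0.525% (SD, n = 3 each). The coding sequences of the pair, both 597 bases long, are identical at 78.6% of positions, with no shared run longer than 20 bases. Per kb of exon the mean level of Sar1b was 44.5 CPM with vehicle and that of Sar1a 36.5 CPM.

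Apoh and Apoe were at low levels and their groups overlapped. Apoh (ENSMUSG00000000049.12), which encodes the phospholipid-binding plasma protein beta-2-glycoprotein I, had 43, 51 and 47 counts with vehicle and 51, 60 and 60 with palmitate. This came to 2.26, 2.32 and 2.17 CPM against 2.28, 2.66 and 2.64 CPM, so palmitate library 1 lay within the vehicle range. The log2 fold change was 0.17 (SE 0.166, approximate 95% interval -0.16 to 0.49). Counting alone gives a relative error of 14.6% at that level with vehicle, more than the 3.39% seen between the vehicle libraries. Apoe (ENSMUSG00000002985.17), the ligand by which many cells take up remnants, had 5.06, 4.55 and 3.92 CPM with vehicle and 4.16, 4.35 and 4.62 CPM with palmitate. All palmitate values lay within the vehicle range. Its log2 fold change was -0.04 (SE 0.124, approximate 95% interval -0.28 to 0.21), so differences of up to about that size in either direction were not resolved at this depth. Macrophages are a known source of Apoe. Of 7 macrophage markers in the table, 4 were under 1 CPM in each library, among them Lyz2 and Itgam at 0 or 1 count. Cd14 made up most of a summed level of 65.3 to 69.3 CPM with vehicle and 67.8 to 72.8 CPM with palmitate. Cd68 averaged 7.14 CPM with vehicle and 9.66 CPM with palmitate, and Mrc1 1.86 and 1.58 CPM. Their part in the Apoe level was not tested.

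Vldlr (ENSMUSG00000024924.15), a receptor for triglyceride-rich particles and for reelin, was lower with palmitate. It had 148, 147 and 151 CPM with vehicle and 125.1, 129 and 125.3 CPM with palmitate. The groups were well apart relative to their spread. The means were 149 ± 2.34 and 126 ± 1.90 CPM (SD, n = 3 each), which differ 1.18-fold (log2 fold change -0.24, SE 0.0241). Lsr (ENSMUSG00000001247.17), whose product binds remnants and also belongs to the tricellular junctions of epithelia, was slightly higher with palmitate. It had 194, 196.2 and 195.9 CPM with vehicle and 210.3, 214 and 209 CPM with palmitate. All palmitate libraries were above all vehicle libraries. The means were 195 ± 1.25 and 211 ± 2.71 CPM (SD, n = 3 each; log2 fold change 0.11, SE 0.0208). In the annotation at hand 43.6% of the exon bases of Lsr overlap the antisense gene Gm4673, which had 5.66 ± 0.889 CPM with vehicle and 3.03 ± 0.166 CPM with palmitate (SD, n = 3 each). The kit keeps strand, but no source here says whether the counting used it, and without strand the reads of that overlap cannot be told apart.

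Per kb of exon the order with vehicle was Lsr at 89.9 CPM, Apob at 89.6, Sar1b at 44.5, Vldlr at 14.8, Mttp at 2.41, Apoe at 2.11 and Apoh at 1.41. Lsr and Apob did not differ beyond the spread of Apob there, whereas with palmitate the levels were 97.2 for Lsr and 37.3 for Apob, below the 49.0 of Sar1b. All 7 genes passed the filter on low counts, as did 14987 genes in all. Groups did not overlap for 5 of the 7, of which 3 were lower and 2 higher, and for 57.8% of all tested genes. Since the genes were chosen on this contrast, nothing is read from those shares. Apob alone among the 7 was lower at least 2-fold, and 2.79% of all tested genes were lower at least 2-fold with a call and groups that did not overlap. The median log2 fold change of the 7 genes was -0.04, and that of all tested genes 0.00068.

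**Figure D2:**
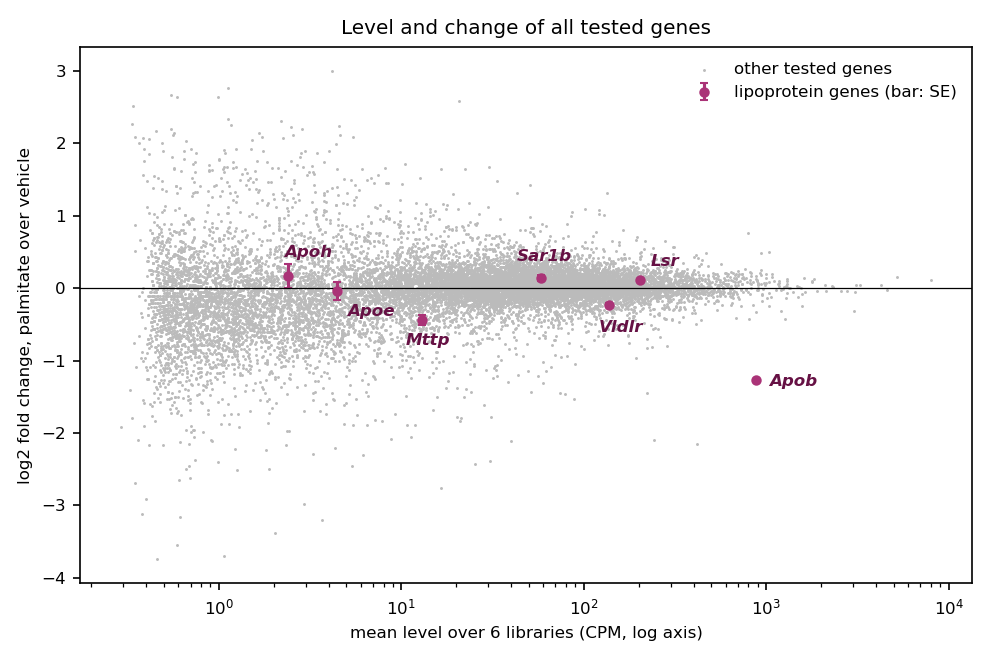
Mean level over the 6 libraries (CPM, log axis) against the log2 fold change of palmitate over vehicle for each of 14987 tested genes (grey), with the 7 lipoprotein genes and their SE in purple. Apob stands at -1.27, while the other 6 lie between -0.44 and 0.17.

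Other genes of the pathway were taken from 6 lists, which hold none of the 7 genes, and were tested across all genes. A call means an edgeR adjusted p below 0.05. The background over all 14987 genes was 52.8% called, 4110 higher and 3805 lower, and the counts of each list stand beside that background with no test of the list itself. Among other apolipoproteins and Apob editing factors, 5 of 19 (12 of them in the table) had enough counts and none was called: 0 were higher and 0 lower (edgeR quasi-likelihood test; 1 of the 5 at an unadjusted p under 0.05, and 0 called by DESeq2). Their median log2 fold change was -0.05. The lipid-carrying chaperone gene Clu, also called apolipoprotein J, had 87.6 ± 2.24 CPM with vehicle and 84.6 ± 2.39 CPM with palmitate (SD, n = 3 each), and Rbm47, a factor that supports Apob editing, had 103 ± 1.95 and 106 ± 0.526 CPM. These genes were chosen for mention after their values were seen. Apoa1, the main protein of high-density lipoprotein, had 1 to 9 counts in each library and was not tested. Apoc2, the activator of lipoprotein lipase, was not analysed here.

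Of 18 tested genes for lipid loading and folding in the endoplasmic reticulum, 5 rose, 7 fell and 6 were not called (66.7% called, against 52.8% of all genes), with a median log2 fold change of -0.02. The greatest fall was in Tor1aip1, whose product activates torsin A in the nuclear envelope and endoplasmic reticulum, from 65.1 ± 0.157 to 45.0 ± 0.918 CPM (SD, n = 3 each; log2 fold change -0.53 with SE 0.0362, edgeR adjusted p = 3.16e-23). The chaperone genes Dnajc3 (log2 fold change -0.25) and Hyou1 (-0.15) fell, and Calr, which encodes calreticulin, rose (0.13). P4hb, which encodes protein disulfide isomerase, the obligate partner subunit of the Mttp product, was at 1292 ± 3.11 CPM with vehicle and 1309 ± 3.82 CPM with palmitate (SD, n = 3 each; log2 fold change 0.02, edgeR adjusted p = 0.267) and was not called. Tm6sf2, a gene of lipoprotein lipidation in liver and gut, was under 1 CPM on average in both groups (log2 fold change -0.26, SE 0.267).

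Of 25 tested genes of the COPII coat, its cargo receptors and onward transport, 4 rose, 12 fell and 9 were not called (64.0% called, against 52.8% of all genes), with a median log2 fold change of -0.06. Sort1, a sorting receptor that binds apolipoprotein B, fell from 134 ± 1.83 to 108 ± 2.03 CPM (SD, n = 3 each; log2 fold change -0.32 with SE 0.0256, edgeR adjusted p = 4.42e-19). The Golgi SNARE gene Stx5a (log2 fold change -0.28), the outer coat gene Sec31a (-0.15) and Surf4, a cargo receptor for lipoproteins (-0.09), fell too. Mia2, which helps large cargo leave the endoplasmic reticulum, rose from 173 ± 4.63 to 200.3 ± 2.59 CPM (SD, n = 3 each; log2 fold change 0.21, edgeR adjusted p = 5.42e-14), and its relative Mia3, named after its value was seen, fell (-0.16). Sec16b, which helps form the sites where COPII vesicles leave, was chosen after its value was seen as the greatest fall of this list, at 2.44 ± 0.329 and 1.42 ± 0.171 CPM (SD, n = 3 each, log2 fold change -0.78, edgeR adjusted p = 0.00027).

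**Figure D3:**
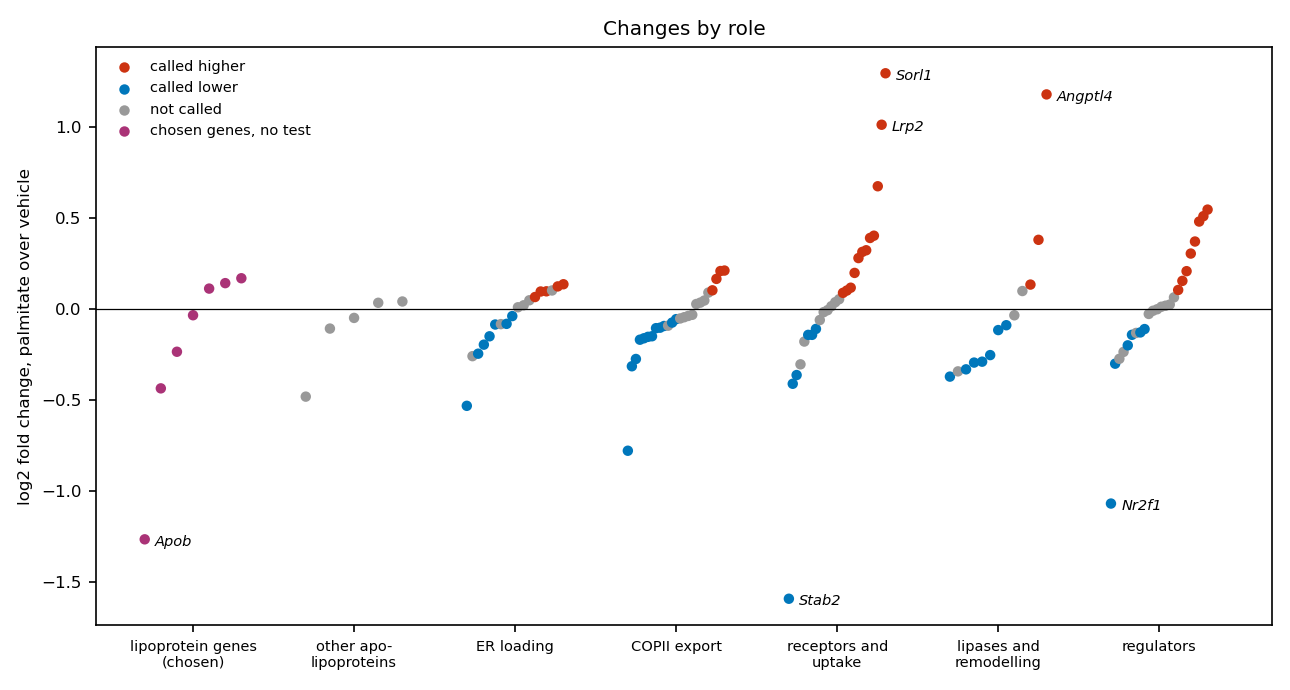
Log2 fold change of palmitate over vehicle for the 7 chosen genes and for the tested genes of 6 lists, each point 1 gene, ordered within its list and coloured by call. Most genes lie within 0.5 of 0, and the 6 genes past a 2-fold change are named.

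Among lipoprotein receptors and their partners, 12 of 26 tested genes rose, 6 fell and 8 were not called (69.2% called, against 52.8% of all genes), with a median log2 fold change of 0.04. Lrp2, which encodes the endocytic receptor megalin, rose from 86.2 ± 4.55 to 173 ± 3.17 CPM (SD, n = 3 each; log2 fold change 1.01 with SE 0.0267, edgeR adjusted p = 1.13e-49). Lrp1, a remnant receptor that binds Apoe, fell from 260.4 ± 2.33 to 202 ± 0.916 CPM (SD, n = 3 each; log2 fold change -0.36 with SE 0.0200, edgeR adjusted p = 7.24e-29). Lrp8, which shares reelin and Apoe as ligands with Vldlr, stood at 0.05 on the same scale (edgeR adjusted p = 0.171), not a call. Ildr2, of the same family as Lsr, rose from 238 ± 7.53 to 311 ± 4.31 CPM (SD, n = 3 each; log2 fold change 0.39, edgeR adjusted p = 2.39e-30), as did its relative Ildr1 (0.32), which was named after its value was seen. Scarb1, the receptor for high-density lipoprotein, rose (0.28), and so did Sdc1, a heparan sulfate proteoglycan that holds remnants at the cell surface (0.20). The other receptor genes called at 2-fold or more were Sorl1, higher (1.29), and Stab2, lower (-1.59), both at under 4 CPM and named for that reason after their values were seen.

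In the order of 26 uptake genes, Vldlr and Lsr included, per kb of exon, Lsr was 2 in both groups, behind Sdc1. Some tested uptake genes are not reported here and were left out of this order, so places hold only among the 26 ranked. Vldlr was 7 with vehicle, at 14.8 CPM per kb, next to Lrp1 at 14.7, from which it did not differ beyond its spread. With palmitate it was 9, at 12.5 CPM per kb, and Lrp1 was 12, at 11.4. Lrp2 moved from 17 to 13.

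**Figure D4:**
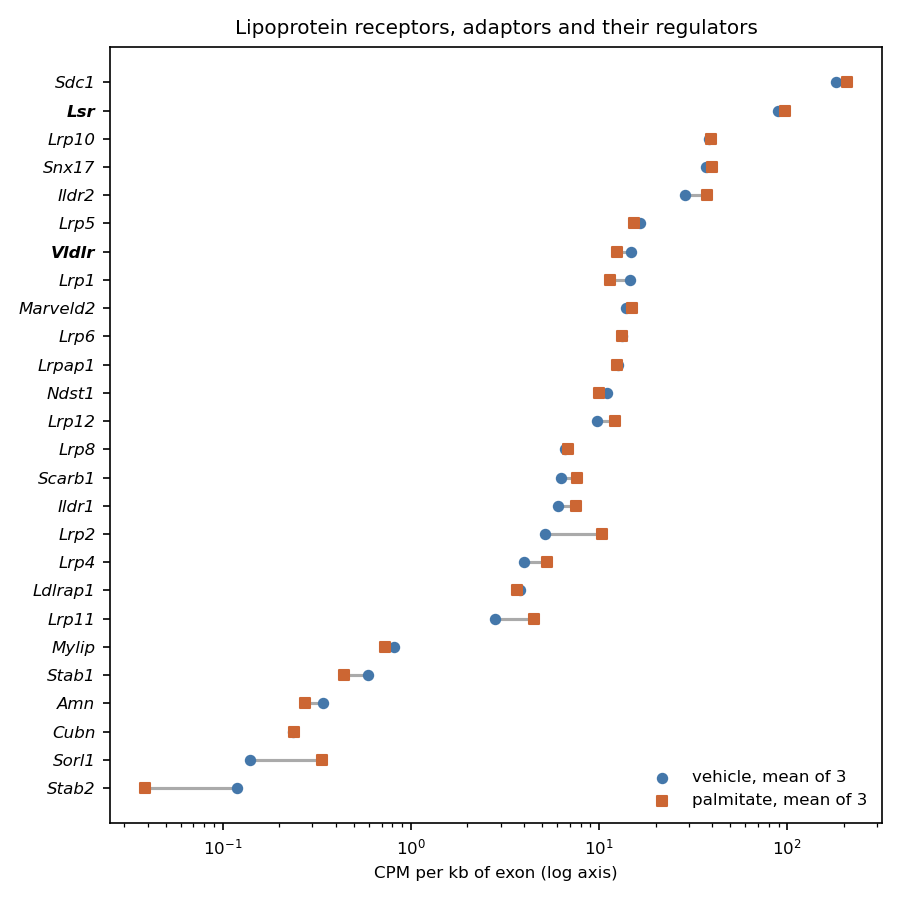
Mean level per kb of exon (log axis) of 26 lipoprotein receptors, adaptors and related genes with vehicle (circles) and palmitate (squares), in the order of the vehicle level; Vldlr and Lsr are in bold. Lsr lies near the top, Vldlr and Lrp1 lie side by side and shift to the left, and Lrp2 shifts to the right.

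Of 13 tested genes of lipoprotein lipases, lipid transfer and sterol handling, 3 rose, 7 fell and 3 were not called (76.9% called, against 52.8% of all genes), with a median log2 fold change of -0.12. With DESeq2, run without the count filter, 5 of 17 were called, 1 higher and 4 lower, against 5692 of all 23399 genes. Angptl4, which encodes a lipase inhibitor and is known to respond to fatty acids, rose from 14.4 ± 0.634 to 32.7 ± 1.64 CPM (SD, n = 3 each), a log2 fold change of 1.18 (SE 0.0560, edgeR adjusted p = 5.75e-33). Soat1, whose product esterifies cholesterol, fell from 342 ± 6.44 to 280.0 ± 5.67 CPM (SD, n = 3 each, log2 fold change -0.29, edgeR adjusted p = 3.60e-24). The transporter gene Abca7 (-0.33) and Lipa, the lysosomal lipase that breaks down lipoprotein lipid taken up by cells (-0.30), fell as well. Lpl, lipoprotein lipase itself, named after its value was seen, had 10.9 ± 0.264 CPM with vehicle and 9.13 ± 0.876 CPM with palmitate (SD, n = 3 each; log2 fold change -0.25, edgeR adjusted p = 0.00623). Abca1 was not analysed here.

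Among transcription factors known to act on Apob, Mttp or Apoe, 8 of 24 tested genes rose, 6 fell and 10 were not called (58.3% called, against 52.8% of all genes), with a median log2 fold change of 0.0044. With DESeq2, run without the count filter, 8 of 27 were called, 4 higher and 4 lower, against 5692 of all 23399 genes. Nr2f1, an orphan receptor that can bind the same elements as HNF4A, fell from 44.3 ± 1.88 to 21.1 ± 1.50 CPM (SD, n = 3 each; log2 fold change -1.07 with SE 0.0486, edgeR adjusted p = 4.05e-34). Hnf4a, an activator of Apob and Mttp in liver and gut, rose from 38.8 ± 1.02 to 50.1 ± 0.568 CPM (SD, n = 3 each; log2 fold change 0.37 with SE 0.0398, edgeR adjusted p = 2.19e-13). Foxo1, which activates Mttp in liver, fell from 135 ± 2.88 to 110.0 ± 3.43 CPM (SD, n = 3 each; log2 fold change -0.30, edgeR adjusted p = 9.17e-18). The coactivator gene Ppargc1a (0.55) and Onecut2 (0.48) rose. Cdx2, an intestinal factor at 1.72 ± 0.276 and 2.46 ± 0.365 CPM (SD, n = 3 each), stood at 0.51, a call that did not hold with DESeq2 (adjusted p = 0.123) or without vehicle replicate 2, palmitate replicate 1 or palmitate replicate 3 (adjusted p = 0.0871, 0.0506 and 0.0788 by edgeR).

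The genes whose pattern over the 6 libraries was nearest to that of Apob, with a floor of 20 CPM on the mean, were Rorb, Fbxo32, Slc9a3, Crybb1 and Pof1b. Likeness was the root mean square distance between log2 CPM values centred on each gene's mean, and was 0.0378, 0.0495, 0.0554, 0.0580 and 0.0700 for these genes. Rorb, an orphan nuclear receptor gene, had 45.4, 44.9 and 43.8 CPM with vehicle and 19.1, 19.2 and 18.4 CPM with palmitate. Fbxo32 encodes a ubiquitin ligase subunit known from muscle wasting, and Slc9a3 the sodium and proton exchanger of the gut brush border. All 5 had means of 44.7 to 84.8 CPM with vehicle. The nearest to Apoh were Mrpl42, Dennd3 and Polm, with log2 fold changes of 0.13, 0.18 and 0.20, at 43 to 60 counts of Apoh per library. These likenesses rest on 6 libraries in 2 groups and are descriptions only. None of the 7 genes is in any of the 93 metabolic gene sets that the authors deposited.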

How the data were processed

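The 6 libraries came from polyadenylated RNA and keep strand, per the labels' protocols. Raw counts for 23399 genes were deposited; the submitters' processing notes name build GRCm39 and, without roles, DESeq2 1.34.0, HTSeq, STAR 2.6.1 and FastQC 0.11.8. The authors' deposited gene table holds log2 fold changes, p-values and q-values from DESeq2 and a signed score, per the column description; only its log2 values were used, and its values for the 7 genes differ from those here by at most 0.0033. No source here says whether they were shrunk. The deposited value and that of DESeq2 run here without shrinkage were both 0.17126 for Apoh, a gene with few counts, and both -1.26338 for Apob.

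The 7 genes and the lists were chosen with earlier results of these data known. Groups came from the sample titles. The main test was edgeR 4.0.16 under R 4.3.3 on the deposited counts (TMM, filterByExpr with a minimum count of 10, robust glmQLFit, two-sided glmQLFTest, Benjamini-Hochberg over 14987 genes, threshold 0.05). The SE is the log2 fold change over the root of the quasi-likelihood F; approximate 95% intervals use the normal distribution. Log2 CPM used a prior count of 2. The test was tried on simulated counts. Level per kb used the union of exons in an earlier annotation (GENCODE M21, GRCm38), which also gave the overlaps between genes. Named in each list were up to 4 called genes by smallest p and a fixed panel. Other list genes, among them P4hb, Clu, Rbm47, Mia3, Sec16b, Ildr1, Sorl1, Stab2 and Lpl, were named outside this rule with their values known. Apob and Apoh also had their nearest genes by pattern. Pairs of libraries of a group differed by more than counting noise (chi-square over degrees of freedom 1.20 to 1.38), so none was taken for a copy. Alternatives were median-of-ratios scaling, no count filter, DESeq2 1.42.0, a replicate block, leaving out each library and thinning to the smallest total. Figures used matplotlib 3.10.9 in Python 3.11.15. Some listed genes are not reported here, though the counts of called genes include them.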

Additional observations from a re-analysis of the deposited data

How the results depend on the processing

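The 7 genes' log2 fold changes were recomputed under 11 alternatives and 76 of 77 values moved by less than the spread between replicates. The exception was Apoh, at 0.26 after thinning all libraries to the smallest total, against 0.17. Over all alternatives Apob stayed between -1.29 and -1.25, Mttp between -0.49 and -0.40, Vldlr between -0.25 and -0.22, Sar1b between 0.10 and 0.17 and Lsr between 0.10 and 0.12, while Apoe ran from -0.13 to 0.05 and so changed sign. Of 14987 genes 7915 were called by edgeR. DESeq2, run on 23399 genes without the count filter, called 5692. With DESeq2, 5 of 17 lipase and remodelling genes were called against 10 of 13, and 8 of 27 regulators against 14 of 24. The cause was not tested. Among other apolipoproteins, 1 gene, Saa3, was called with the replicate block and 0 to 1 when single libraries were left out (1 without palmitate replicate 3), against 0. Same-numbered libraries did not deviate together (correlations -0.0196 to -0.0173 over 9677 genes). Libraries of a group differed by only somewhat more than counting noise, so this check cannot decide whether the numbers pair the samples. The replicate block gave 7933 calls. Of 30 named list genes, 27 kept their call in all 11; of the other 3, Cdx2 lost it in some, 1 is not reported here, and Sar1a was called lower after thinning (-0.06, adjusted p = 0.0439, edgeR). Depth limits Apoh, Apoe and other genes under about 5 CPM most.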
